A study of Drosophila melanogaster with 44 samples.

Results

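Cohesin and condensin are ring-shaped protein complexes that hold and fold chromosomes. Each is built on a pair of SMC ATPases closed by a kleisin subunit. Cohesin, with the ATPases SMC1 and SMC3, the kleisin vtd (Rad21 in other species) and the regulatory subunit SA, holds sister chromatids together from replication to anaphase, and Nipped-B loads it onto chromatin. Condensin, with the ATPases SMC2 and glu (SMC4 in other species), compacts chromosomes for division. In condensin I the kleisin is barr, which acts with Cap-G and Cap-D2, and in condensin II the kleisin is Cap-H2, which acts with Cap-D3. In the *Drosophila* ovary, Cap-H2 is known for dispersing the polytene chromosomes of nurse cells, the germline cells that feed the oocyte.

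These 10 genes were taken by FlyBase symbol from the 17807 genes listed for each library, and all 10 passed the filter on low counts in every comparison. The series measured poly(A)+ RNA in 12 mRNA-seq libraries after loss of Mod(mdg4), a BTB-domain chromatin protein made in many splice variants that share their N-terminal part. There were 3 libraries of whole ovary from y1 w1118 flies (wild type) and 3 from flies of that background carrying Mod(mdg4) RN1-2/1-2, which are homozygous for the deletion of a single CRISPR-Cas9 line, a frameshift in the exon specific to variant N. OSC, a line of cultured ovarian somatic cells derived from follicle cells, had 2 libraries each after siRNA KD of EGFP (the control), of Mod(mdg4)-N and of all variants (Mod(mdg4)-All). The labels give no age for the flies and no genotype for OSC, and they do not say whether replicates came from separate cultures or flies, so p-values measure the spread between these libraries.

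Totals were between 13728168 and 20244538 expected counts per library. Of the 4 follicle cell markers, *tj*, *zfh1* and *fs(1)Yb* were lower in wild-type ovary than in EGFP KD OSC and *Fas3* was not called, at a mean of 34.1 TPM in the ovary and 13.0 TPM in OSC. The summed level of 8 germline markers was between 3.72 and 5.91 TPM in OSC against 1505 to 1798 TPM in ovary. Hemocyte markers summed to at most 0.480 TPM in every library. The wild-type ovary library numbered 1 stood apart from the other 5 ovary libraries by its late follicle cell (eggshell) transcripts, whose 6 markers summed to 112 TPM there and to between 6925 and 12143 TPM in the others. *mod(mdg4)* itself, counted over all variants, fell in OSC by 2.47 on the log2 scale after Mod(mdg4)-All KD (SE 0.09, adjusted p = 3.7e-04, edgeR), and its log2 fold change was -0.12 after Mod(mdg4)-N KD (SE 0.07, adjusted p = 1.00). In mutant ovary its log2 fold change was -0.42 (SE 0.18, adjusted p = 0.13), and -0.42 with the replicate block described below (SE 0.07, adjusted p = 0.020). A gene-level count cannot show the loss of a single variant.

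The stretches of 150 bases before the start of *SMC1*, *SMC3*, *Cap-H2* and *glu* are shown because *SMC1* and *glu* fell in mutant ovary in the blocked test below while *SMC3* and *Cap-H2* were not called, and because the motif counted here was present in *SMC1*, *SMC3* and *Cap-H2* and absent from *glu*. Capitals mark ATCGATA on either strand. This word overlaps the DNA replication-related element (DRE, TATCGATA), a promoter motif of many *Drosophila* replication and growth genes that is bound by the factor DREF. The *SMC1* stretch is chr3R:24058137-24058286 on the plus strand, the *SMC3* stretch chrX:16593440-16593589 on the minus strand, the *Cap-H2* stretch chr3R:10761160-10761309 on the plus strand (inside an exon of *asRNA:CR45016*) and the *glu* stretch chr2L:16738389-16738538 on the minus strand.
SMC1: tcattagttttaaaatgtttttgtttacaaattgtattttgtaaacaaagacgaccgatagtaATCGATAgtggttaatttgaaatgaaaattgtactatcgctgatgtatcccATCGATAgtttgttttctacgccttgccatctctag
SMC3: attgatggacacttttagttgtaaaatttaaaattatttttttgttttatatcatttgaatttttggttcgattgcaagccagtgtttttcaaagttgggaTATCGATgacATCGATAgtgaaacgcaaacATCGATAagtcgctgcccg
Cap-H2: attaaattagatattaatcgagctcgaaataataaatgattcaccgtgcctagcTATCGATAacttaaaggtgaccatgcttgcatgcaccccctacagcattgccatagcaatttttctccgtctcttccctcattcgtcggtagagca
glu: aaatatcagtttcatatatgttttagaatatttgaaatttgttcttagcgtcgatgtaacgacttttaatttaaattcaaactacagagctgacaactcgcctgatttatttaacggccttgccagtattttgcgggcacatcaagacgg

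ATCGATA began 87 and 36 bases before the start of *SMC1*, and 49, 39 and 19 bases before that of *SMC3*. In *Cap-H2* it was part of a whole DRE that began 96 bases before the start. Over windows from 250 bases before to 50 bases after the gene start, ATCGATA on either strand was found in 6 of the 10 genes (*SMC1*, *SMC3*, *vtd*, *SA*, *Cap-G* and *Cap-H2*), against 18.2% of 13945 promoters of protein-coding genes. A whole DRE was found in 3 of them (9.36% of all), the core of motif 1 (GTCACACT) in 2 (6.62%), and any of the E2F words TTTCGCGC, TTTGGCGC, TTTCCCGC and TTTGCCGC in 1 (6.43%). The motifs were chosen with the expression values known, and a match is a description of the letters, not of a bound site. ATCGATA was in 3 of the 6 genes that fell in mutant ovary in the blocked test and in 3 of the other 4. Whether its presence goes with the calls was not tested.

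The genes lie on the X and on both arms of chromosomes 2 and 3 (dm6, Release 6, 1-based). *SMC1* (FBgn0040283) is at chr3R:24058287-24062815 on the plus strand, *SMC3* (FBgn0015615) at chrX:16588996-16593439 on the minus strand, *vtd* (FBgn0260987) at chr3L:27136525-27157999 on the plus strand and *SA* (FBgn0020616, named SA1 in the annotation) at chr2L:6950421-6954586 on the plus strand. *glu* (FBgn0015391) is at chr2L:16733617-16738388 and *barr* (FBgn0014127) at chr2L:20058163-20061370, both on the minus strand, and *Cap-H2* (FBgn0037831) is at chr3R:10761310-10766756 on the plus strand. *Nipped-B* (FBgn0026401), *SMC2* (FBgn0027783) and *Cap-G* (FBgn0259876) are on arm 2R. Exons of *SA* (5.34% of its exon bases, with *CG13775*), *glu* (0.177%, with *Nubp1*) and *Cap-H2* (8.15% with *asRNA:CR45016* and 3.3% with *TfIIFbeta*) overlap a gene on the opposite strand. The counting is not stated to use strand, so reads from those stretches may belong to the neighbour.

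Levels were compared between genes in TPM, which is scaled per length. *vtd* had the highest level of the 10 genes in every group and *Cap-H2* the lowest. In wild-type ovary, *vtd* was at 71.5 ± 18.3 TPM (SD, n = 3) and *Cap-H2* at 14.4 ± 1.50 TPM. Between them, in descending order, were *Nipped-B*, *Cap-G*, *SMC1*, *glu*, *barr*, *SMC3*, *SMC2* and *SA*, with means from 53.1 down to 22.5 TPM. Neighbours in this order overlapped in their ranges over libraries, except *SA* and *Cap-H2*. In EGFP KD OSC, *vtd* was at 96.4 TPM (97.9 and 95.0) and stood clear of *Nipped-B* at 57.4 TPM (61.2 and 53.5). There *Cap-G*, which was 3rd in wild-type ovary, was 8th with 33.5 TPM (36.1 and 30.9), and *barr* was 4th with 52.8 TPM (56.0 and 49.6).

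The subunits of a complex were not at equal levels. The ratio of *vtd* to its partner *SA* in TPM was 3.14 ± 0.343 (SD, n = 3) in wild-type ovary and 3.85 in EGFP KD OSC (3.95 and 3.75). The condensin I kleisin gene *barr* exceeded the condensin II kleisin gene *Cap-H2* in every library, by a ratio of 2.88 ± 0.625 (SD, n = 3) in wild-type ovary, 1.61 ± 0.544 in mutant ovary and 3.94 in EGFP KD OSC (4.01 and 3.86). The HEAT-repeat subunit gene *Cap-D2* of condensin I likewise exceeded *Cap-D3* of condensin II, with a ratio of 3.46 ± 0.863 in wild-type ovary. Of the ATPases, *SMC1* exceeded *SMC3* by a ratio of 1.40 ± 0.0127 in wild-type ovary and of 1.09 ± 0.0755 in mutant ovary, and *SMC2* was below *glu* in ovary (0.704 ± 0.0165 in wild type) but not in EGFP KD OSC (1.03 and 1.09).

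**Figure D1:**
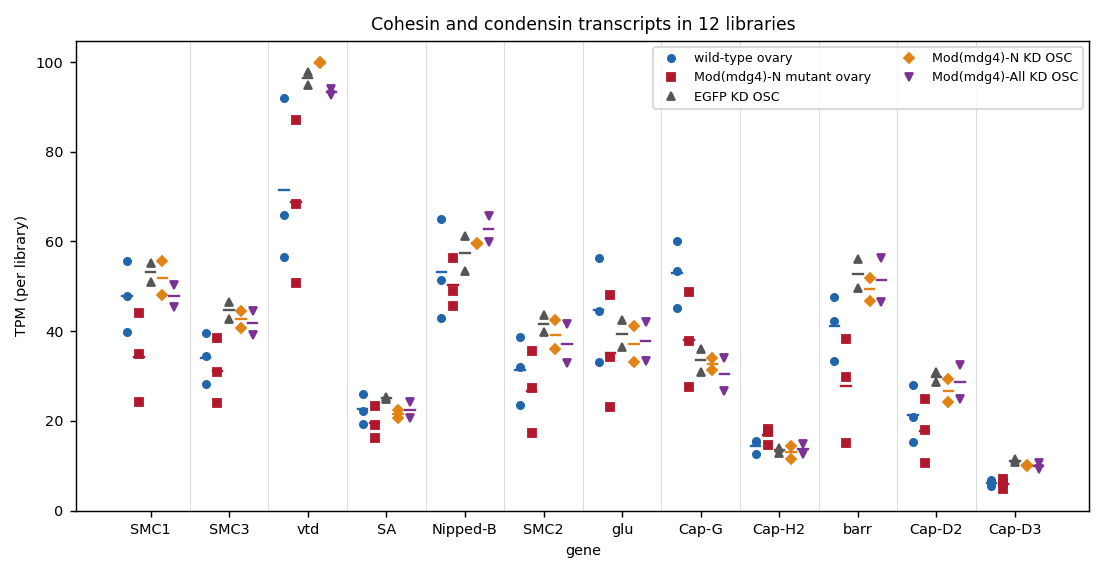
TPM of the 10 cohesin and condensin genes and of *Cap-D2* and *Cap-D3* in each of 12 libraries. Points are libraries, coloured by group, and short lines are group means. *vtd* is the highest gene in every group, *Cap-D3* is the lowest gene plotted, and *Cap-G* is higher in wild-type ovary (45.2 to 60.2 TPM) than in OSC (26.6 to 36.1 TPM).

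The comparison of mutant with wild-type ovary asked what loss of variant N does in the animal. Transcripts of *SMC1*, *Cap-G*, *glu*, *barr*, *SMC2* and *SA* were lower in all 3 same-numbered pairs of libraries. These 6 genes passed the test, with fitted changes of -15.4% to -37.2%, once the replicate number was a block. Same-numbered libraries deviated alike, by the check given under the processing, but the labels do not say what a number marks. Without the block, none of the 10 genes passed. *vtd*, *Nipped-B* and *Cap-H2* had pairs of either sign, and *SMC3* was lower in all 3 pairs without passing. Values below are CPM normalized by TMM over the 6 ovary libraries. Whole ovaries hold many cell types, so fewer cells of a type and less RNA per cell cannot be told apart.

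*SMC1* was at 131, 152 and 172 CPM in the wild-type libraries numbered 1, 2 and 3 and at 81.6, 108 and 127 CPM in the mutant libraries of the same numbers. Every mutant library was below every wild-type library. With the block its log2 fold change was -0.54 (SE 0.08, 95% interval -0.76 to -0.32, adjusted p = 0.018, edgeR quasi-likelihood test with Benjamini-Hochberg adjustment), a 1.45-fold fall, and without the block it was -0.52 (SE 0.18, adjusted p = 0.085). *SMC3*, the ATPase that pairs with it, was at 95.2, 112 and 125 CPM in wild type and 83.2, 98.3 and 113 CPM in the mutant. Its groups overlapped, and its log2 fold change was -0.18 with the block (SE 0.07, adjusted p = 0.11).

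*SA* was at 58.9, 64.7 and 73.9 CPM in wild type and 50.6, 54.3 and 62.1 CPM in the mutant, which overlapped. It fell by 0.24 on the log2 scale with the block (SE 0.06, adjusted p = 0.044; without it, -0.24, SE 0.12 and adjusted p = 0.17). The kleisin gene *vtd* was at 105, 117 and 159 CPM in wild type and 97.0, 119 and 141 CPM in the mutant, so the genotypes could not be separated (-0.09 with the block, SE 0.08, adjusted p = 0.41). The loader gene *Nipped-B* was at 245, 281 and 346 CPM in wild type and 267, 262 and 281 CPM in the mutant, and was at -0.09 on the log2 scale with the block (SE 0.10, adjusted p = 0.49). Its pair numbered 1 was higher in the mutant and the other pairs were lower.

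Of the condensin genes, *Cap-G* was at 167, 190 and 209 CPM in wild type and 105, 131 and 158 CPM in the mutant, without overlap. It fell by 0.54 on the log2 scale with the block (SE 0.08, 95% interval -0.75 to -0.32, adjusted p = 0.018; without it, -0.52, SE 0.16 and adjusted p = 0.069). *glu* was at 127, 163 and 202 CPM in wild type and 90.4, 123 and 160 CPM in the mutant, which overlapped, while each pair was lower in the mutant. It fell by 0.41 with the block (SE 0.07, adjusted p = 0.023; without it, -0.40, SE 0.25 and adjusted p = 0.27). *SMC2*, its ATPase partner, was at 72.5, 94.7 and 112 CPM in wild type and 55.1, 79.2 and 95.6 CPM in the mutant, and it fell by 0.29 with the block (SE 0.07, adjusted p = 0.041; without it, -0.28, SE 0.23 and adjusted p = 0.41).

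The kleisin genes of the condensins differed in their calls. *barr*, of condensin I, was at 70.3, 85.9 and 94.0 CPM in wild type and 32.9, 59.2 and 71.2 CPM in the mutant, where the library numbered 1 was far below the other mutant libraries. It fell by 0.67 with the block (SE 0.15, 95% interval -1.07 to -0.28, adjusted p = 0.036; without it, -0.61, SE 0.27 and adjusted p = 0.15), the most negative value of the 10 genes. *Cap-H2*, of condensin II, was at 50.9, 40.5 and 46.6 CPM in wild type and 49.9, 54.0 and 51.8 CPM in the mutant and was the only one of the 10 genes with a positive log2 fold change (0.18 with the block, SE 0.11, adjusted p = 0.26). The partners of the kleisins in the HEAT-repeat family were called likewise. *Cap-D2* of condensin I was at 55.0, 72.5 and 94.8 CPM in wild type and 39.5, 60.9 and 78.5 CPM in the mutant, and fell by 0.33 with the block (SE 0.07, adjusted p = 0.036; without it, adjusted p = 0.45). *Cap-D3* of condensin II was at 20.4, 17.8 and 21.4 CPM against 16.4, 19.2 and 20.4 CPM (-0.09 with the block, SE 0.14, adjusted p = 0.63). Whether the change of *barr* differed from that of *Cap-H2* was not tested.

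**Figure D2:**
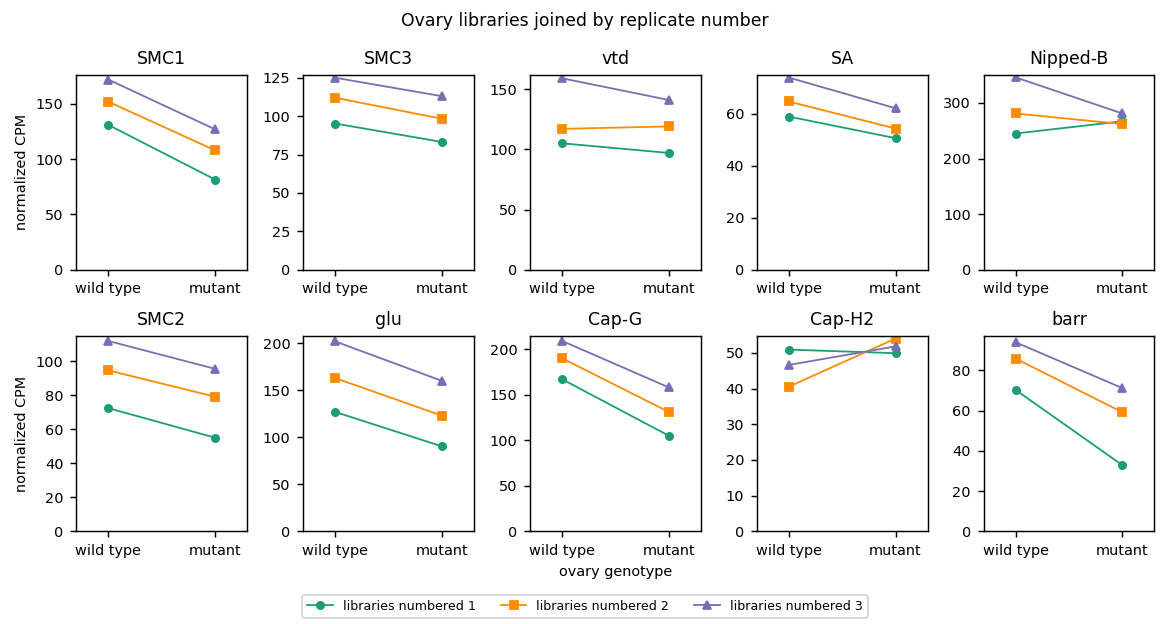
Normalized CPM of each gene in the 6 ovary libraries, with the wild-type and mutant libraries of the same number joined by a line. The lines of *SMC1*, *SMC3*, *SA*, *SMC2*, *glu*, *Cap-G* and *barr* all slope down, and within each of these genes the libraries numbered 1 are the lowest and those numbered 3 the highest in both genotypes.

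Of all 7934 genes tested, 1438 (18.1%) were called without the block, 6.42% lower and 11.7% higher, against 0 of the 10 cohesin and condensin genes. An unadjusted p under 0.05 in edgeR was found for 2 of the 10 (*SMC1* and *Cap-G*) and for 3042 of all 7934. DESeq2 called the same 2 and 2365 of all 7934. On log2(TPM + 1) with limma, 83.4% of the calls over all genes were higher, against 64.6% in the count test, and again 0 of the 10 were called. With the block, 2279 genes (28.7%) were called, 14.0% lower and 14.8% higher, against 6 of 10 lower and 0 higher. The median log2 fold change of the 10 genes was -0.27 with the block, beside -0.01 over all genes. Being lower in all 3 pairs held for 7 of the 10 and for 33.3% of all genes, and mutant libraries all below wild-type libraries for 2 of the 10 and for 21.6% of all genes.

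The spread that the block removed was shared between the genotypes. The libraries numbered 1 were the lowest and those numbered 3 the highest in both genotypes for 8 of the 10 genes (not *Nipped-B* and *Cap-H2*) and for 14.8% of all genes. Markers of cell types differed between the libraries as well. The 8 germline markers summed to 1505 to 1723 TPM in wild type and 1737 to 1798 TPM in the mutant, the 4 follicle cell markers to 65.1 to 94.4 and 74.9 to 104 TPM, and the 6 muscle sheath markers to 80.3 to 167 and 57.0 to 96.1 TPM. The largest part of the germline sum was *osk* (657 to 937 TPM). With the block 4 of the 8 were called lower and 0 higher, namely *rhi* (-2.08, adjusted p = 0.014, edgeR), *AGO3* (-0.55, adjusted p = 0.016), *vas* (-0.51, adjusted p = 0.028) and *nos* (-0.28, adjusted p = 0.044). Of these, *rhi* and *vas* were also called without it. The other 4 (*osk*, *aub*, *orb* and *otu*) had a higher mean CPM in the mutant and were not called. The highest log2 fold change of the 8 was 0.34 with the block. Of the follicle cell markers *zfh1* was called lower (-0.61, adjusted p = 0.014 with the block, edgeR) and the others were not called. Mean CPM in wild type and mutant was 76.8 and 126 for *tj*, 2.49 and 3.38 for *fs(1)Yb*, and 75.8 and 62.5 for *Fas3*. The 6 late follicle cell markers had a median log2 fold change of -0.64 without the block and 0.82 with it, and 0 of the 6 were called in either. The part of all these cell type markers in the lower values was not tested.

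The calls depended on single pairs. Without the libraries numbered 1, which include the wild-type library with few eggshell transcripts, *SMC1* (-0.47, adjusted p = 0.039), *Cap-G* (-0.48, adjusted p = 0.043) and *barr* (-0.48, adjusted p = 0.036) were called in the blocked test with edgeR. Of all 7944 genes tested in that fit, 1161 were called, 539 of them lower. Without the libraries numbered 3, *SMC1*, *glu*, *Cap-G* and *barr* were called, beside 2232 of 8101 genes in all, 1074 of them lower. Without the libraries numbered 2, 0 of the 10 genes and 30 genes in all were called.

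**Figure D3:**
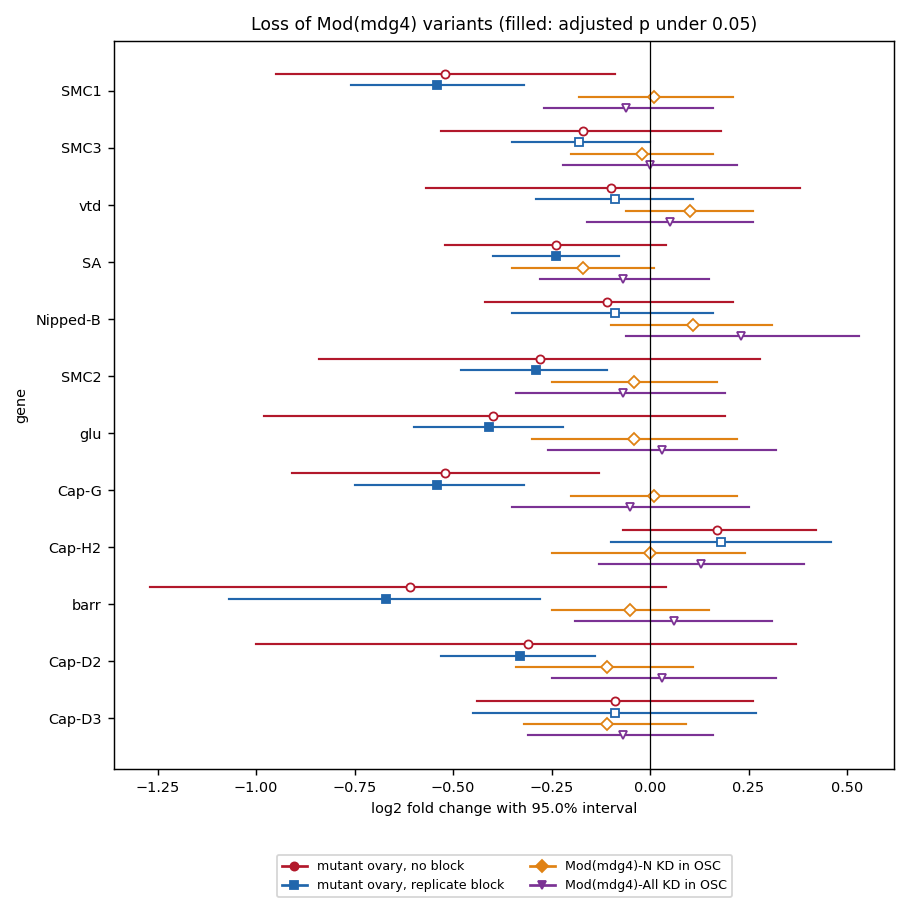
Log2 fold changes with 95% intervals for the 10 genes, *Cap-D2* and *Cap-D3* in mutant ovary (with and without the replicate block), after Mod(mdg4)-N KD and after Mod(mdg4)-All KD in OSC. Filled symbols have an adjusted p under 0.05. Filled symbols occur only for mutant ovary with the block, in *SMC1*, *SA*, *SMC2*, *glu*, *Cap-G*, *barr* and *Cap-D2*, and the OSC values lie between -0.17 and 0.23.

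Of 15 other genes of cohesin and its cycle 12 were tested in ovary. With the block 5 fell and 0 rose (median log2 fold change -0.30), beside 14.0% of all genes lower and 14.8% higher, and without it 0 were called. The values of *san* (0.07) and *c(2)M* (0.23) were positive and did not pass the test. The calls with the lowest adjusted p were *pim*, the securin that inhibits separase (-0.87, SE 0.11, adjusted p = 0.014), *Mau2*, the partner of Nipped-B (-0.55, SE 0.08, adjusted p = 0.017), *thr*, which acts with separase (-0.59, SE 0.10, adjusted p = 0.022) and *mei-S332*, a shugoshin that protects centromeric cohesin (-0.57, SE 0.11, adjusted p = 0.028). *pim* was at 68.1, 91.1 and 114 CPM in wild type and 30.9, 53.1 and 70.3 CPM in the mutant. Only the mutant library numbered 3 reached above the lowest wild-type library.

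Of the 4 other genes listed with condensin, of which *Cap-D2* and *Cap-D3* are those of its subunits, *Cap-D2* was called lower with the block. *Cap-D3*, *MRG15* and *Top2* were not. Of the 5 tested genes of the SMC5/6 complex, the SMC complex that acts in DNA repair, 3 fell with the block (beside 14.0% of all genes), namely *SMC6* (-0.40, adjusted p = 0.018), *Nse4* (-0.36, adjusted p = 0.043) and *SMC5* (-0.28, adjusted p = 0.045). Beside the same 14.0% of all genes, 7 of 16 genes of mitosis fell and 0 rose (median -0.30), among them the checkpoint kinase gene *Bub1* (-0.41, adjusted p = 0.020), the cyclin gene *CycB3* (-0.66, adjusted p = 0.025), the cyclin-dependent kinase gene *Cdk1* (-0.36, adjusted p = 0.031) and the centromeric histone gene *cid* (-0.47, adjusted p = 0.035). Without the block, 0 genes of any of these lists were called. All adjusted p here are from edgeR over all 7934 genes.

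**Figure D4:**
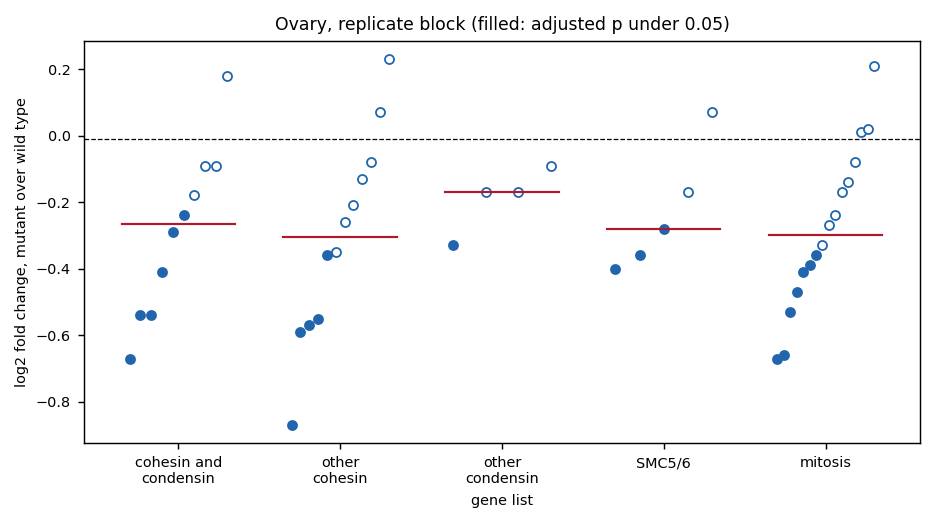
Log2 fold changes in mutant over wild-type ovary with the replicate block for the 10 genes and 4 related lists. Each point is a gene, filled where the adjusted p was under 0.05, red lines are list medians and the dashed line is the median of all genes (-0.01). Every filled point lies below 0.

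In OSC, KD of Mod(mdg4)-N asked what depletion of the same variant does in cultured follicle cells, and none of the 10 genes was called against EGFP KD. *SMC1* was at 184 and 170 CPM after EGFP KD and at 188 and 169 CPM after Mod(mdg4)-N KD (normalized over the 6 OSC libraries), and *Cap-G* at 136 and 116 against 129 and 124 CPM. Both genes overlapped between the groups. The log2 fold change of *SMC1* was 0.01 (95% interval -0.18 to 0.21) and that of *Cap-G* 0.01 (-0.20 to 0.22). The intervals of these genes in mutant ovary without the block, -0.95 to -0.09 and -0.91 to -0.13, overlapped those of OSC. The difference between ovary and OSC was tested as an interaction, given below. The widest departure from 0 was that of *SA*, at 76.1 and 78.0 against 69.8 and 67.3 CPM (-0.17, SE 0.08, 95% interval -0.35 to 0.01, adjusted p = 1.00).

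The other 7 genes had log2 fold changes between -0.05 (*barr*, 95% interval -0.25 to 0.15) and 0.11 (*Nipped-B*, -0.10 to 0.31). Of 8106 genes tested with edgeR, 2 (0.0247%) were called, and 228 had an unadjusted p under 0.05, none of them among the 10. DESeq2 called 7 genes and none of the 10.

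The Mod(mdg4)-All KD targeted every variant together and left *mod(mdg4)* at a mean of 108 CPM against 603 CPM after EGFP KD. Again none of the 10 genes was called. *Nipped-B* had the largest log2 fold change, at 419 and 355 CPM against 354 and 308 CPM after EGFP KD (0.23, SE 0.12, 95% interval -0.06 to 0.53, adjusted p = 0.50). Both KD libraries were above both control libraries, at 355 against 354 CPM for the nearest. *Cap-H2* was at 45.4 and 50.9 against 46.2 and 42.2 CPM (0.13, 95% interval -0.13 to 0.39), and the others were between -0.07 and 0.06. In the comparison with Mod(mdg4)-N KD, which sets KD of all variants against that of N, the values of the 10 genes lay between -0.08 (*SMC1*, 95% interval -0.28 to 0.13) and 0.13 (*Cap-H2*, -0.16 to 0.41), and none was called.

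Over all genes, 89 of 8126 (1.10%) were called after Mod(mdg4)-All KD and 93 of 8118 (1.15%) between the KDs, and 0 of the 10 genes had an unadjusted p under 0.05 in either comparison with edgeR. DESeq2 called 230 and 214 genes and none of the 10. With a replicate block, 0.173% of genes were called after Mod(mdg4)-N KD, 2.04% after Mod(mdg4)-All KD and 0.345% between them, with none of the 10 in any. The OSC comparisons share their libraries, so their values are not independent. Among the other genes listed with cohesin and condensin, the SMC5/6 genes and the mitosis genes, 0 were called in any OSC comparison.

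Whether the effect of losing variant N differed between ovary and OSC was tested as an interaction in a single fit of 10 libraries. Without a block, 0 of the 10 genes and 298 of 9011 genes (3.31%) were called. The most negative differences were those of *barr* (-0.57, SE 0.39, adjusted p = 0.42), *SMC1* (-0.55, SE 0.26, adjusted p = 0.27) and *Cap-G* (-0.54, SE 0.24, adjusted p = 0.24). With a block within each tissue, 676 genes (7.50%) were called, *SMC1* (-0.56, SE 0.10, adjusted p = 0.035) and *Cap-G* (-0.56, SE 0.11, adjusted p = 0.043) among them, both lower in ovary relative to OSC. *glu* (-0.38, SE 0.08, adjusted p = 0.052) and *barr* (-0.63, SE 0.21, adjusted p = 0.12) were not called. Of the related lists, *pim* (-0.83, SE 0.16, adjusted p = 0.041) and *Cdk1* (-0.43, SE 0.09, adjusted p = 0.049) were called with the block. Tissue, culture, and a stable mutation against an siRNA differ together in this comparison and cannot be told apart.

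The control groups themselves differed in some subunits. Tissue, culture and siRNA transfection differ together between these groups and cannot be told apart. In wild-type ovary against EGFP KD OSC, *SMC3*, *vtd*, *SMC2* and *barr* were lower in ovary, *Cap-G* was higher, and *SMC1*, *SA*, *Nipped-B*, *glu* and *Cap-H2* were not called. Values are CPM normalized over these 5 libraries. How many of all genes had no overlap between these groups was not counted. *Cap-G* was at 165, 188 and 205 CPM in ovary and 141 and 120 CPM in OSC, without overlap (log2 fold change 0.52, SE 0.12, adjusted p = 0.013). *SMC3* was at 94.1, 111 and 123 CPM in ovary and 166 and 151 CPM in OSC, also without overlap (-0.53, SE 0.13, adjusted p = 0.013).

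*barr* was at 69.5, 85.2 and 92.6 CPM in ovary against 124 and 109 CPM in OSC (-0.50, SE 0.14, adjusted p = 0.023). *vtd* was at 104, 116 and 157 against 191 and 184 CPM (-0.57, SE 0.18, adjusted p = 0.033) and *SMC2* at 71.7, 93.9 and 110 against 142 and 128 CPM (-0.56, SE 0.18, adjusted p = 0.039). The ovary libraries of these genes were all below those of OSC, with no share of all genes to set beside this. *glu* overlapped between the groups (0.04, 95% interval -0.47 to 0.54), as did *Cap-H2* (-0.01, -0.32 to 0.30).

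Both HEAT-repeat genes that define the condensins were lower in ovary. *Cap-D3* was at 20.1, 17.7 and 21.0 CPM in ovary and 38.2 and 40.8 CPM in OSC (-1.01, SE 0.11, adjusted p = 7.9e-04), and 17.9% of its exon bases overlap *asRNA:CR44793* on the opposite strand. *Cap-D2* was at 54.4, 71.9 and 93.4 against 119 and 108 CPM (-0.63, SE 0.22, adjusted p = 0.049). In this comparison 5973 of 8685 genes (68.8%) were called with edgeR, 33.3% lower and 35.5% higher in ovary. The 5 of 10 called in all and the 1 of 10 higher are shares below those of all genes. The 4 of 10 lower are not.

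**Figure D5:**
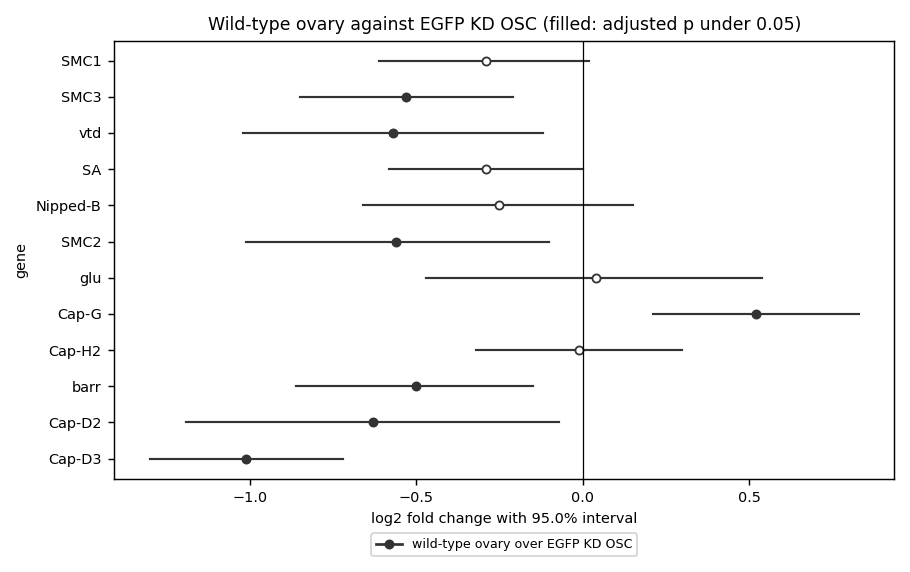
Log2 fold changes with 95% intervals in wild-type ovary over EGFP KD OSC for the 10 genes, *Cap-D2* and *Cap-D3*. Filled symbols have an adjusted p under 0.05. *Cap-G* (0.52) is the only filled symbol above 0, and *Cap-D3* (-1.01) is the farthest below.

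The calls between ovary and OSC were not firm for every gene. *Cap-G* lost its call without the EGFP KD library numbered 2 (0.32, adjusted p = 0.15), and *vtd* and *SMC2* lost theirs without wild-type library 2, without either EGFP KD library, and with no filter on low counts. *SMC3* and *barr* lost theirs without the EGFP KD library numbered 1 (adjusted p = 0.057 and 0.087 with edgeR). Without wild-type library 3, 8 of the 10 genes were called, with *SMC1* (-0.39), *SA* (-0.38) and *Nipped-B* (-0.39) added as lower in ovary. On log2(TPM + 1) with limma only *Cap-G* was called.

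Of 13 tested other genes of cohesin and its cycle, 9 were higher in ovary and 1 lower, beside 35.5% of all genes higher and 33.3% lower (68.8% called in all). Their median log2 fold change was 1.04, beside 0.02 over all genes. The 13 genes include *sunn* and *solo*, which each passed the filter on low counts through 1 group alone. The gene called lower was *sunn*, a meiotic cohesion gene, at 0.363, 0.118 and 0.424 CPM in ovary and 1.16 and 1.27 CPM in OSC. It passed the filter through its OSC libraries alone, so its call was not independent of the filter. Its value of 0.118 CPM was under 3 counts (0.18 CPM in that library). *c(2)M*, a meiotic kleisin of the synaptonemal complex, was at 52.8, 48.0 and 29.7 CPM in ovary and 1.59 and 1.14 CPM in OSC (log2 fold change 4.98, SE 0.37, adjusted p = 1.7e-04, edgeR). *solo*, a meiotic cohesion gene, was at 8.95, 8.46 and 7.21 against 0.0612 and 0.190 CPM. It passed the filter through its ovary libraries alone, and its value of 0.0612 CPM was under 3 counts (0.177 CPM in that library). Of its exon bases, 16.9% are shared with the germline gene *vas* on the same strand, so its reads could be split with *vas*. *dmt*, a regulator that stabilizes cohesin (1.94, SE 0.12, adjusted p = 1.0e-04), and *wapl*, which releases cohesin (1.07, SE 0.10, adjusted p = 4.2e-04), were higher in ovary as well.

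Of the 5 tested SMC5/6 genes only *Nse4* was called (0.64, adjusted p = 0.0086), and of 16 mitosis genes 7 were higher in ovary and 3 lower, beside 35.5% and 33.3% of all genes. The cyclin genes *CycB* (3.05, adjusted p = 2.4e-05) and *CycA* (2.63, adjusted p = 2.2e-05), *cid* (1.90, adjusted p = 9.4e-05) and *CycB3* (1.61, adjusted p = 6.2e-04) had the lowest adjusted p of these in edgeR.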

How the data were processed

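The 12 mRNA-seq libraries of ovary and OSC were analysed; the ChIP-seq and Micro-C samples were not used here. Poly(A)+ RNA was prepared with a stranded kit, and the authors mapped paired-end reads to dm6 with RSEM and STAR (versions, annotation and strand setting not given in the sources used here). The deposited tables give expected counts per gene, without normalization, of which 15.7% of nonzero values were not whole because RSEM divides reads that map to several genes, and TPM, which the authors' RSEM run scaled per length to the same sum in each library.

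Rounded expected counts were used, and genes above 1 CPM in as many libraries as the smaller group holds were tested with TMM normalization and the quasi-likelihood F test of edgeR 4.0.16 (legacy setting) in R 4.3.3. A gene was called at a Benjamini-Hochberg adjusted p under 0.05 over all genes tested. The SE of a log2 fold change was taken from F as the fold change over the root of F. Intervals use the t distribution with the fit's degrees of freedom. The test was run on simulated data first. Symbols of 17709 genes came from the reference tables, and promoter sequences from the Release 6 genome with Ensembl gene starts. Totals of 13728168 to 20244538 counts per library set the precision of low values, and chi-square per degree of freedom between libraries of a group was 6.91 to 87.4, so no library was a copy.

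Same-numbered ovary libraries deviated alike. Over 7934 genes, deviations from the genotype means correlated by 0.214, 0.335 and 0.273 between same-numbered libraries, and by -0.312 to 0.0505 between others. Deviations sum to 0 within a genotype, so the values between others follow in part from those of the same-numbered libraries. The labels do not say what a number marks, so the pairing is an assumption of the block. In OSC, with 2 numbers, libraries share only a number. The alternatives tried were DESeq2 1.42.0, RLE size factors, limma 3.58.1 on voom weights or on log2(TPM + 1), edgeR's newer algorithm, filterByExpr or no filter, a fit over all OSC groups, the replicate block, and leaving out each replicate. The block with a pair left out, or with another tool, was added after seeing the data. The 10 genes, the lists, the tests and the motifs were chosen with earlier results of these data known. The rule named the 10 genes, *Cap-D2*, *Cap-D3* and *mod(mdg4)* in every comparison, and of each other list up to 4 called genes with the lowest adjusted p. Some genes are named outside this rule. Among them are *san*, *c(2)M*, *MRG15* and *Top2*, which were not called in mutant ovary, and *sunn* in ovary against OSC.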

Additional observations from a re-analysis of the deposited data

Results flagged for a closer look

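With the replicate block, the effect of Mod(mdg4)-N loss differed between ovary and OSC for *SMC1* (difference of log2 fold changes -0.56, adjusted p = 0.035, edgeR interaction) and for *Cap-G* (-0.56, adjusted p = 0.043). Each was lower in 3 of 3 mutant ovary pairs, as were 33.3% of all genes tested in ovary, and these pairs also entered the blocked fit. Without the block neither interaction was called, at -0.55 (adjusted p = 0.27) and -0.54 (adjusted p = 0.24). In ovary alone, neither gene was called with the block once the libraries numbered 2 were left out. Groups of 2 and 3 libraries are too small for a test of single libraries that stand apart.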

How the results depend on the processing

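In mutant ovary the count of the 10 genes called was 0 without the block, 2 with DESeq2 and 0 to 1 with a replicate left out (*Cap-G*, without the mutant library numbered 3). With the replicate block it was 6, also with RLE size factors and limma-voom, 5 with DESeq2, and 0 to 4 with a pair left out. Over all genes the counts were 1438, 2365 with DESeq2, 2279 with the replicate block (2272 with RLE size factors, 2687 with DESeq2, 2606 with limma-voom), 158 to 1438 with a replicate left out and 30 to 2232 with a pair left out of the block, the lowest without the libraries numbered 2. None of the 10 genes was called in the 3 OSC comparisons under any alternative run. There, all genes called after Mod(mdg4)-N KD numbered 2, against 7 with DESeq2, 1 with limma-voom, 26 with no filter, 14 with the replicate block, 0 in a single fit of all OSC groups and 3 to 45 with a replicate left out. After Mod(mdg4)-All KD they numbered 89, against 230 with DESeq2, 188 with no filter, 144 on log2(TPM + 1), 166 with the replicate block, 178 in the single fit and 20 to 293 with a replicate left out. Between the KDs they numbered 93, against 214 with DESeq2, 505 with no filter, 28 with the replicate block and 12 to 568 with a replicate left out. The OSC block correlations of same-numbered libraries were 0.191, 0.146 and -0.153. In wild-type ovary against EGFP KD OSC, 5 of the 10 were called, 7 with DESeq2, 3 with no filter, 1 on log2(TPM + 1) and 1 to 8 with a replicate left out. All genes called there numbered 5973, 6335 with DESeq2 and 4025 to 6265 with a replicate left out. For the difference between ovary and OSC, 2 of the 10 were called with the replicate block and 0 otherwise, and all genes numbered 298, against 867 with DESeq2, 772 on log2(TPM + 1), 676 with the replicate block and 19 to 432 with a replicate left out. No called value changed sign. Where an arm was left with 1 library, it was taken to vary like the others. The causes were not tested. No paired analysis was possible because wild-type ovary and EGFP KD OSC are different materials, in that comparison alone.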
